A study of Caenorhabditis elegans with 2 samples.

Results

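The GATA factor genes followed here were the 9 genes elt-1, elt-2, elt-3, elt-4, elt-6, elt-7, egl-18, end-1 and end-3, among 19973 nuclear protein-coding genes of the annotation. They were examined in chromatin immunoprecipitation sequencing (ChIP-seq) of the eGFP-tagged product of tlp-1, a C2H2 zinc finger gene. The material was whole L1 larvae of mixed sex from the Caenorhabditis elegans strain OP321, which is mutant for unc-119 (allele tm4063) and carries the insertion wgIs321; both of the 2 biological replicates shared this genotype and stage. The labels name tlp-1 as the antibody target and do not say which promoter drives the tagged copy or whether the untagged gene is intact. A region was assigned to a gene when its summit lay in the gene body or within 2000 bp of any annotated transcription start of that gene. By this rule 22 of the 28183 regions of replicate 1, 25 of the 23975 of replicate 2, 18 of the 11633 of the list pooled over both replicates and 1 of the 328 of the thresholded list lay at these genes. The replicate and pooled lists were deposited as peaks together with background, as input to an irreproducible discovery rate (IDR) analysis. A place in them is therefore no call of binding by itself, least of all for weak regions. The thresholded list is what the authors kept after that step, and its 328 members were those with the highest pooled signal. Whole animals were used, so that binding in few cells and weak binding in many cells cannot be told apart.

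GATA factors are zinc finger transcription factors that recognise the sequence WGATAR, in which W is A or T and R is A or G. In the worm they act in succession in the endoderm, where end-1 and end-3 specify the lineage in the embryo and elt-2 and elt-7 then establish and keep the fate of the gut. In the epidermis, elt-1 specifies the cells, elt-3 acts in their differentiation, and egl-18 (also called elt-5) and elt-6 act in the seam cells. The small gene elt-4 lies next to elt-2 and resembles it closely.

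The sequences at the summits of the leading regions are shown first, because the presence or absence of a GATA site is read from them. The strength of a region comes from its signal in the lists and cannot be read from these letters. Each printed sequence runs 101 bp and is centred on a pooled summit. It is the plus strand of the RefSeq assembly WBcel235 (ce11), which is also the strand of the genes. Capitals mark WGATAR on either strand. The set holds the pooled region of highest signal at each of the 7 genes that had one. The second regions of elt-1, elt-2 and elt-3 were added after their values had been seen.
elt-3 upstream, chrX:13934370-13934470: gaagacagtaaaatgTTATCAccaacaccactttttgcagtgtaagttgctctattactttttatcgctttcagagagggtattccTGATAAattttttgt
elt-3 intron, chrX:13937399-13937499: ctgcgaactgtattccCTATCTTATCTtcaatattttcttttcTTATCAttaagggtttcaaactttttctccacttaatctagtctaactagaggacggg
elt-1 distal intron, chrIV:9617472-9617572: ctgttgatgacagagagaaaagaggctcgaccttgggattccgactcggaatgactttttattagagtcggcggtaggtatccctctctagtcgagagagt
elt-1 proximal intron, chrIV:9615681-9615781: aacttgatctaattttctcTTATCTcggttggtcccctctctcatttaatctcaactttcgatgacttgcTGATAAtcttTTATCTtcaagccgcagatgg
elt-2 distal upstream, chrX:10479586-10479686: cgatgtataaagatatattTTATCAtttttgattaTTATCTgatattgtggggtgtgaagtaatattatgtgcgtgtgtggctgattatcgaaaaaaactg
elt-2 proximal upstream, chrX:10480846-10480946: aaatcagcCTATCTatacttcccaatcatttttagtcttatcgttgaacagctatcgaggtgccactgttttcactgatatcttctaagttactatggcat
elt-4 upstream, chrX:10475095-10475195: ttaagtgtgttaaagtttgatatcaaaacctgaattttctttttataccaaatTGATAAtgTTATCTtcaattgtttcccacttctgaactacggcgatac
end-3 upstream, chrV:14013611-14013711: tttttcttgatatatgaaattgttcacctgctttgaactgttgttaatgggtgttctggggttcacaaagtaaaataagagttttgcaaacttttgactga
egl-18 intron, chrIV:1911481-1911581: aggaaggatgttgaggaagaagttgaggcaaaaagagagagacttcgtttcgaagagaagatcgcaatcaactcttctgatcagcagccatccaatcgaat
elt-7 intron, chrV:4771283-4771383: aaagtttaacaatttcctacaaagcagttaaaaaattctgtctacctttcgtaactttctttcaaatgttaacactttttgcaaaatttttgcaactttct

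In these windows, 6 of the 7 regions ranked in the first 1000 of the pooled list held WGATAR, against 74.1% of nuclear regions of those ranks. The printed windows of end-3, egl-18 and elt-7, ranked lower, held none. Over its whole width the elt-7 region held 1 site, and those of end-3 and egl-18 held 0. Sites are less frequent at such ranks. After the first 1000, 33.8% of nuclear regions up to rank 5000 held one, and 24.8% of those beyond rank 5000. So few windows without a site cannot show that these genes differ from other regions of their ranks. Lower regions not printed here did hold sites, at elt-3 (rank 2254) and upstream of elt-1 (rank 4674). The exception among the first 1000 was the distal intron region of elt-1. Sites stood alone in the proximal upstream window of elt-2, in pairs at elt-4, the distal region of elt-2 and the upstream region of elt-3, and in threes in the proximal intron of elt-1 and the intron of elt-3. In the intron window of elt-3, 2 of the 3 sites overlapped by 1 base.

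By pooled rank, 4 of the genes had regions among the first 1000, called strong here, and 5 had weaker regions or none. The word gives a place in the order and is no call of binding. Of the strong regions, only the upstream region of elt-3 was in the thresholded list. Weaker regions were also found at elt-1 and elt-3. Replicate 1 had a region at 7 of the 9 genes, and the same rule found one at 70.8% of nuclear protein-coding genes. In replicate 2 all 9 had a region, against 65.5% of genes. The pooled list had one at 7 of the 9, against 40.2% of genes, and against 39.3% of the 19590 genes whose windows fell within the range of the 9, 4001 to 17519 bp. That range holds nearly all of the 19973 genes, so it does not match the 9 closely for window length. Among the 1000 pooled regions of highest signal, 7 lay at 4 of the genes, elt-1, elt-2, elt-3 and elt-4. Of all genes 5.07% had a region in that set, and of genes in the same range of window length 4.92%. The thresholded list reached 1 of the 9, elt-3, and 1.71% of all genes. These counts are descriptions, since the genes were chosen with earlier results of these data known.

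**Figure D1:**
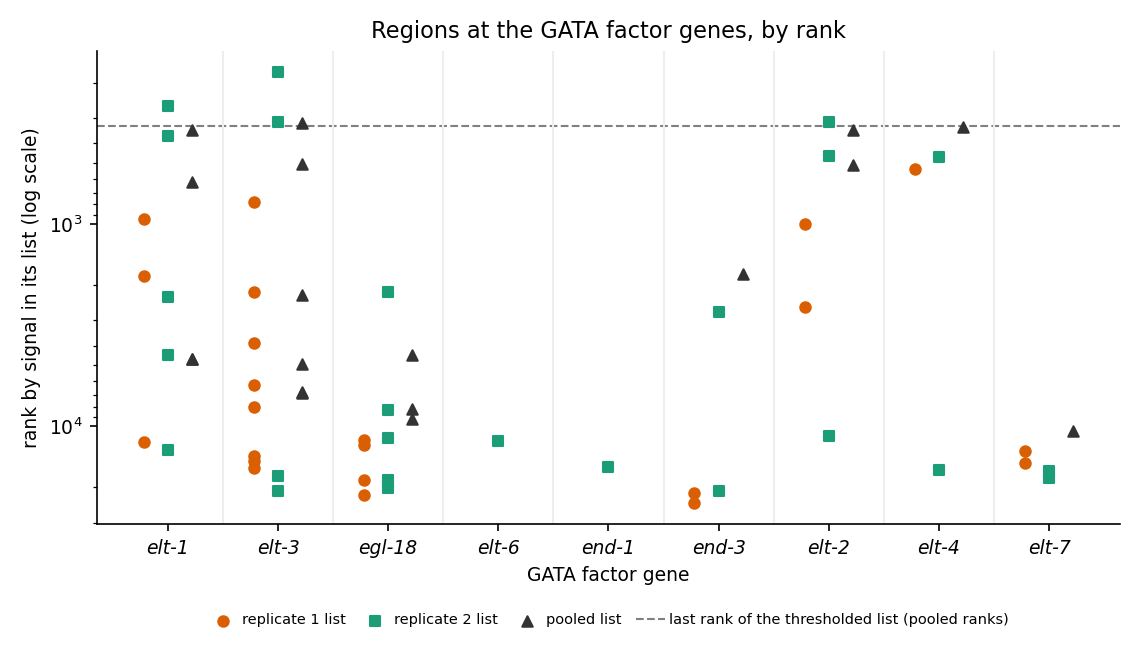
Rank by signal of every region at each of the 9 genes, on a log axis with the highest signals at the top, in replicate 1 (circles), replicate 2 (squares) and the pooled list (triangles); the dashed line marks pooled rank 328, where the thresholded list ends. The pooled regions of elt-3, elt-4, elt-2 and elt-1 gather at that line, at ranks 318, 333, 342 and 345, while elt-6 and end-1 show replicate 2 alone.

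The genes elt-1 and elt-3, which act in the epidermis, held 10 of the 18 pooled regions. The seam genes, also epidermal, had 3 pooled regions at egl-18 and 0 at elt-6. The windows of elt-1 and elt-3, of 8344 and 8853 bp, were the longest of the 9 after that of egl-18. These counts were not adjusted for window length. At elt-3 (WBGene00001251, chrX:13934874-13941216), which acts in epidermal differentiation, 8 regions of replicate 1, 4 of replicate 2 and 6 pooled regions were found. The thresholded region lay 454 bp upstream of the gene start, at chrX:13934260-13934579, with a signal of 38.4 and rank 318 in the pooled list. It ranked 3878 in replicate 1 (signal 9.15) and 312 in replicate 2 (signal 26.0). The scale of the signal is not stated and is not shared by the lists, so ranks, counted from the highest signal in each list, are set against each other instead. The strongest elt-3 region of each replicate lay elsewhere, in an intron, at rank 781 in replicate 1 (signal 13.4) and rank 178 in replicate 2 (signal 30.6). In the pooled list that stretch was divided over 2 overlapping regions, chrX:13937289-13937608 with a signal of 32.8 and rank 503, and chrX:13937494-13937813 with a signal of 20.8 and rank 2254. Their summits lay 2575 and 2780 bp from the gene start. Each replicate therefore put the intron stretch first, while the pooled list put the upstream region first. The further 3 pooled regions of elt-3 ranked 4945, 6758 and 6854. With 6 pooled regions in all, elt-3 was matched or exceeded in number by 0.355% of genes. That share is over all genes, not matched for window length or number of starts. For elt-3 these were 8853 bp and 6 starts, and 2 of its 6 regions are the 1 divided intron stretch.

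At elt-1 (WBGene00001249, chrIV:9614995-9620280), which specifies the epidermis, replicate 1 had 3 regions, replicate 2 had 5 and the pooled list had 4. The leading region lay in an intron 2527 bp from the gene start, at chrIV:9617362-9617681. Its pooled signal was 37.6 and its pooled rank 345, with rank 950 in replicate 1 (signal 12.8) and rank 368 in replicate 2 (signal 24.8). The annotation places the small RNA gene 21ur-15550 at this summit. The proximal intron region, at chrIV:9615571-9615890 and 736 bp from the gene start, had a pooled signal of 30.4 and rank 620. Of the 6 annotated starts of elt-1, the nearest lay 259 bp from its summit, so the region is also close to a start. The replicates ranked this region 1804 (signal 11.0, replicate 1) and 261 (signal 27.5, replicate 2). So the proximal region led in replicate 2, and the distal one both in the pooled list and in replicate 1. The remaining 2 regions of elt-1 ranked 4628, in an intron, and 4674, 745 bp upstream; the upstream one had no counterpart in replicate 1 and rank 2293 in replicate 2. That upstream window held 3 WGATAR sites, the nearest centred 6.5 bp from the summit.

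**Figure D2:**
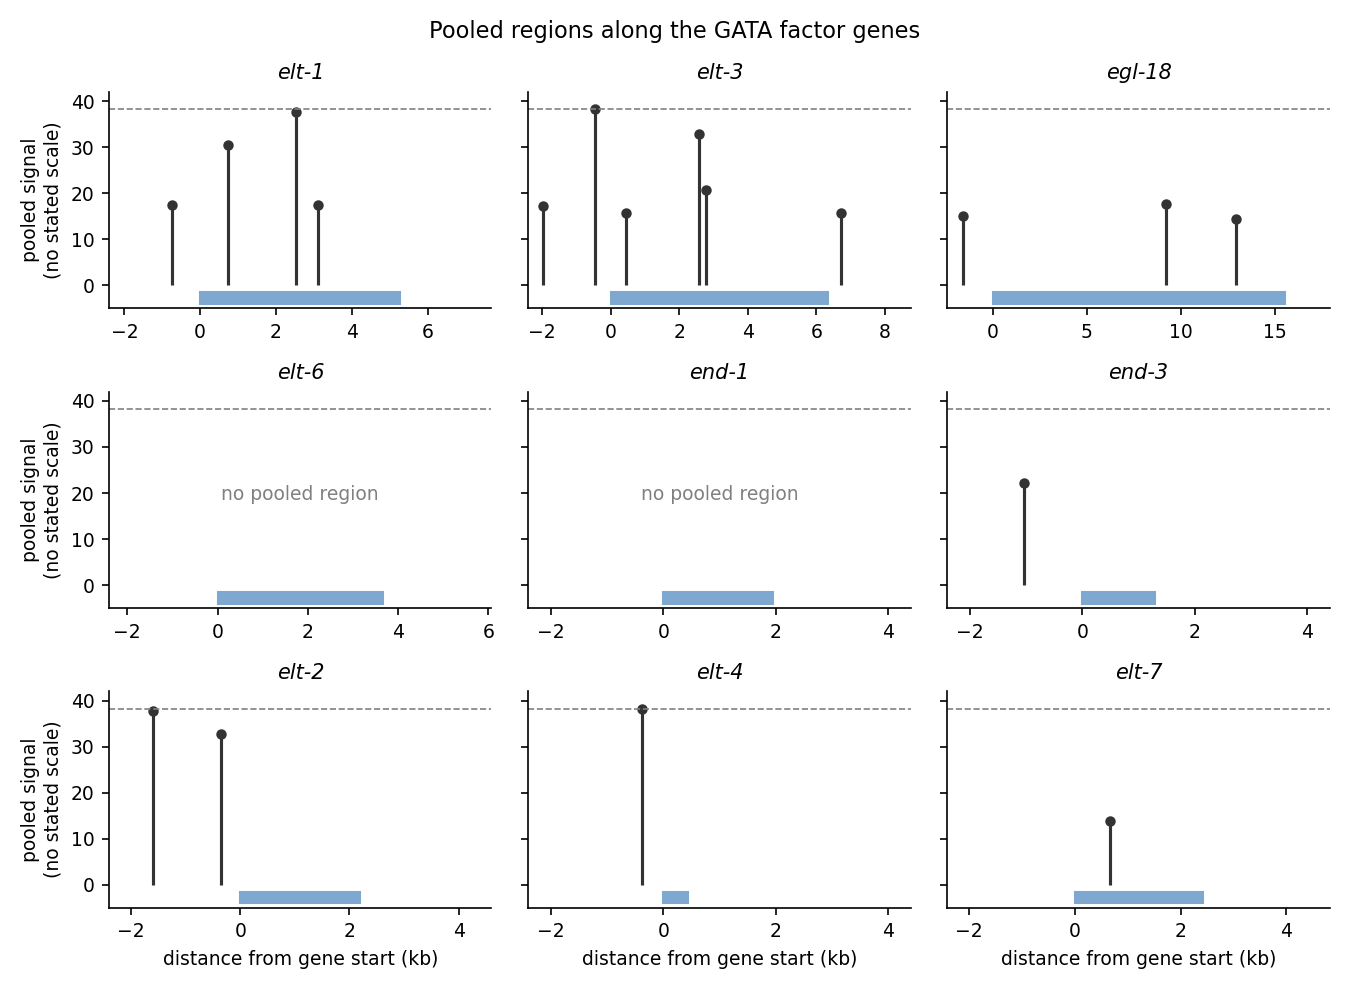
Pooled signal (vertical axis, no stated scale) against distance from the gene start in kb for each of the 9 genes; stems are regions at their summits, the blue bar is the gene body drawn from its start at 0 to the right, and the dashed line is the lowest signal of the thresholded list, 38.2. Strong regions stand upstream of elt-2, elt-3 and elt-4 and within introns of elt-1 and elt-3, and elt-6 and end-1 have no pooled region. Distances are from the outermost start. Both elt-1 and elt-3 have 6 annotated starts, and the proximal intron region of elt-1 lies 259 bp from the nearest.

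In the gut group, elt-2 and elt-4 had strong regions upstream and elt-7 had a weak one. For elt-2 (WBGene00001250, chrX:10481240-10483441), the main regulator of gut genes, replicate 1 had 2 regions, replicate 2 had 3 and the pooled list had 2. The distal region lay 1604 bp upstream at chrX:10479476-10479795, with a pooled signal of 37.7 and rank 342. Replicate 1 ranked it 996 (signal 12.7) and replicate 2 ranked it 459 (signal 23.4). Both replicates thus placed it among their first 1000 regions. The proximal region of elt-2 lay 344 bp upstream at chrX:10480736-10481055, with a pooled signal of 32.7 and rank 511. It stood at rank 2562 in replicate 1 (signal 10.1) and at rank 315 in replicate 2 (signal 25.9). As at elt-1, the 2 replicates put the 2 regions in opposite order. No pooled region lay in the body of elt-2.

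The neighbouring gene elt-4 (WBGene00001252, chrX:10475527-10475959) had 1 region in replicate 1, 2 in replicate 2 and a single pooled region, 382 bp upstream at chrX:10474985-10475304, with a signal of 38.1 and rank 333. It ranked 534 in replicate 1 (signal 14.6) and 469 in replicate 2 (signal 23.1), the most even pair of ranks among the 7 regions of these genes in the first 1000. Because elt-4 and elt-2 resemble each other, the regions were checked for sequence held elsewhere in the genome. Every stretch of 36 bp in each of the 18 pooled regions occurred once in the genome, so none of them consists of repeated sequence at that length. For elt-7 (WBGene00015981, chrV:4770670-4773086), which acts beside elt-2, each replicate had 2 regions. The pooled region lay in an intron at chrV:4771173-4771492, with a signal of 13.9 and rank 10549, near the lowest pooled signal of 13.5. It ranked 15130 in replicate 1 and 16691 in replicate 2, and 37.4% of genes had a best pooled rank as high.

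The genes that specify the endoderm in the embryo had weak regions or none in the pooled list. At end-3 (WBGene00001311, chrV:14014695-14015980) each replicate had 2 regions. The pooled region lay 1034 bp upstream at chrV:14013501-14013820, with a signal of 22.2 and rank 1763. Its ranks were far apart, at 23926 in replicate 1 (signal 4.66, with 4.20 the lowest of that list) and 2738 in replicate 2 (signal 14.2). By best pooled rank, 8.27% of genes were as high as end-3. For end-1 (WBGene00001310, chrV:13985128-13987074) there was no region in replicate 1 or in the pooled list, and replicate 2 had 1 in an untranslated exon, at chrV:13986847-13987170 and rank 15820 (signal 8.58), with 2 WGATAR sites in its window.

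The seam genes were likewise low. Over the 15519 bp of egl-18 (WBGene00001186, chrIV:1902322-1917840) and its surroundings replicate 1 had 4 regions and replicate 2 had 5. The pooled list had 3, at ranks 4457, 8235 and 9153, with signals of 17.6, 15.0 and 14.5. The first lay in an intron at chrIV:1911371-1911690, had no counterpart in replicate 1 and ranked 2177 in replicate 2 (signal 15.1). For elt-6 (WBGene00001253, chrIV:1917977-1921643), directly downstream of egl-18, the pooled list and replicate 1 had no region, and replicate 2 had 1 in a coding exon at chrIV:1920919-1921242, at rank 11830 (signal 9.51). The coding start nearest to that summit belonged to denn-4. In contrast, the nearest coding start to each of the 18 pooled summits was that of its own GATA factor gene. By place, 9 of the 18 lay in introns, 8 upstream and 1 downstream.

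The 4 genes with strong regions lay close to the end of the thresholded list and close to each other. The lowest signal in that list was 38.2, and the first region below it also had 38.2 to that precision. Just inside it stood elt-3 at 38.4, and just outside it stood elt-4 at 38.1, elt-2 at 37.7 and elt-1 at 37.6. By best pooled rank, 1.66% of genes were as high as elt-3, 1.74% as high as elt-4, 1.80% as high as elt-2 and 1.82% as high as elt-1. Their -log10 q values, as the authors gave them, ran from 1.26 to 1.29. The pooled signal has no replicate error, and the replicates differed in the place of elt-4. By best rank replicate 1 had elt-4 at 534, elt-3 at 781, elt-1 at 950 and elt-2 at 996, and replicate 2 had elt-3 at 178, elt-1 at 261, elt-2 at 315 and elt-4 at 469. Both replicates thus had elt-3 above elt-1 and elt-1 above elt-2, and only elt-4 moved, from first to last. The pooled list had elt-2 just above elt-1, unlike either replicate. The order of the 4 genes was not tested and is not settled by these data. In the list of replicate 2 the best rank of any of the 9 genes was thus 178, and in that of replicate 1 it was 534. On the ce10 build, where the authors' thresholded list held 320 peaks with a lowest signal of 38.33, the region matching that of elt-3 had a signal of 38.40 and rank 318. It was in that list as well.

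**Figure D3:**
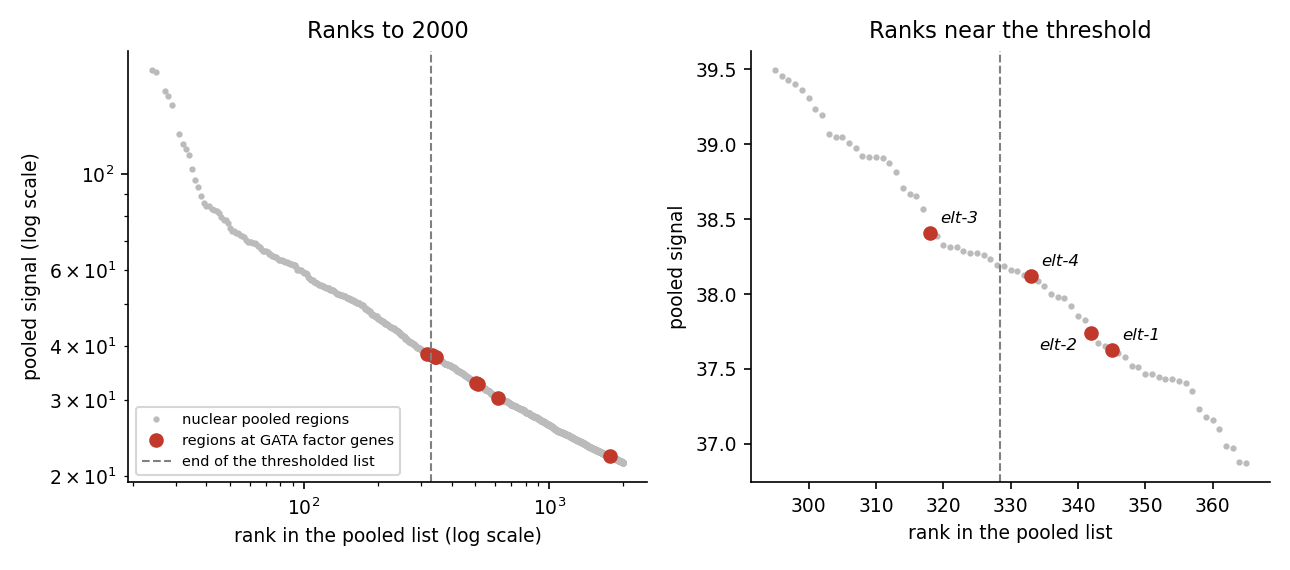
Pooled signal against pooled rank for nuclear regions, to rank 2000 on log axes (left) and near the threshold on linear axes (right); larger points are regions at the GATA factor genes and the dashed line is the end of the thresholded list. At right, elt-3 (rank 318) stands before the line, and elt-4 (333), elt-2 (342) and elt-1 (345) stand just after it.

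Most of these regions were overlapped in both replicates, fewer had summits close by in both, and the strong ones mostly stood higher in replicate 2. Of the 18 pooled regions, 16 were overlapped by at least 1 bp by a region of replicate 1, 17 by one of replicate 2 and 15 by both. Of all nuclear pooled regions 53.6% were overlapped in both, a share not matched for rank. Of the 18, 7 were among the first 1000, against 975 of the 11608 nuclear regions. All 7 were overlapped in both replicates, as were 921 of those 975. The 2 overlapping intron regions of elt-3 matched the same region in each replicate. Of the 18, 8 had a summit within 100 bp in each replicate, against 35.5% of all nuclear pooled regions. The 7 regions among the first 1000 of the pooled list each had a higher raw rank in replicate 2 than in replicate 1. The lists differ in length, and with ranks taken as a percentage of each list 6 of the 7 stood higher in replicate 2. The exception was elt-4, within the top 1.96% of replicate 2 and the top 1.89% of replicate 1. Their median ranks were 996 in replicate 1 and 315 in replicate 2. Of the 921 nuclear regions among the first 1000 that both replicates overlapped, 557 (60.5%) had a higher raw rank in replicate 2 and 520 (56.5%) a higher place by percentage of the list, with median ranks of 918 and 567 in replicates 1 and 2. Depth cannot be read from these lists, and its part in the difference between the replicates was not tested.

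**Figure D4:**
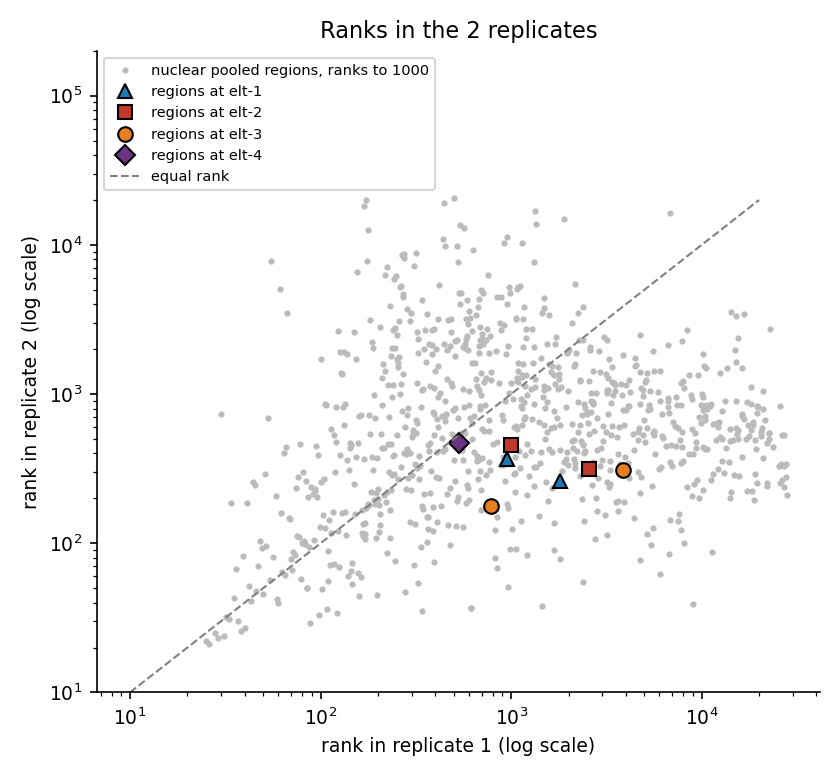
Rank in replicate 2 against rank in replicate 1, both on log axes, for nuclear regions among the first 1000 of the pooled list that both replicates overlapped (grey) and for the 7 of them at elt-1, elt-2, elt-3 and elt-4; the dashed line is equal rank. The 7 lie under the line, which is a higher raw rank in replicate 2, with elt-4 closest to it.

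The share of regions with a GATA site could not be separated from that of the whole pooled list by counting error. Of their 18 regions, 8 held WGATAR at most 50 bp from the summit (44.4%, exact Clopper-Pearson 95% interval 21.5 to 69.2), against 32.0% of the 11608 nuclear pooled regions, a share inside that interval. The interval covers counting error over regions only. Without replicate 2, the regions of replicate 1 gave 6 of 22 (27.3%), against 7037 of its 28158 nuclear regions. Without replicate 1, those of replicate 2 gave 10 of 25 (40%), against 26.9%. By pooled rank the share was lower among weaker regions, with no test of the trend. In ranks 1 to 1000 the site was found in 6 of 7 regions (85.7%, interval 42.1 to 99.6), against 74.1% of nuclear regions of those ranks. From there to rank 5000 it was 2 of 6, against 33.8%, and beyond rank 5000 it was 0 of 5 (interval up to 52.2), against 24.8%. In replicate 1 the order differed, with 2 of 4 regions holding a site among the first 1000 (50%, against 55.4% of its nuclear regions), 3 of 4 from there to rank 5000 (75%, against 29.6%) and 1 of 14 beyond (7.14%, against 22.9%). The element CTTATCA, which includes a GATA site on the other strand, was present in 3 of the 18 windows, against 8.27% of nuclear windows. Those 3 lay in the 2 overlapping intron regions of elt-3, whose windows do not overlap, and upstream of elt-1. Median GC content of the windows was 35.6% at the GATA factor genes and 28.7% over nuclear pooled regions, and its part in the site shares was not tested. The summit was the midpoint of the region, within 1 bp, in 99.7% of pooled regions, which limits how finely the distance to a site can be read.

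**Figure D5:**
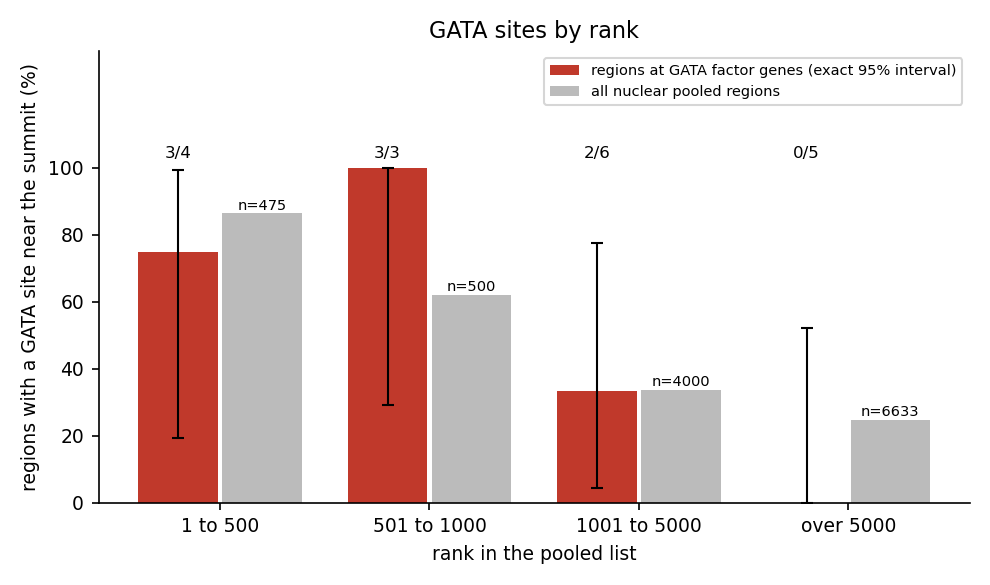
Share of regions with WGATAR within 50 bp of the summit, by rank in the pooled list, for regions at the GATA factor genes (red bars, with exact 95% intervals and counts above) and for all nuclear pooled regions (grey bars, with their number). The red bars stand at 3 of 4, 3 of 3, 2 of 6 and 0 of 5 regions, and the interval of each takes in the grey bar beside it. With so few regions the intervals are wide, 29.2 to 100 for 3 of 3, and could exclude few shares. They also treat regions at the same gene as independent.

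Among the leading regions, the nearest site was centred 4.5 bp from the summit in the intron of elt-3, 5.5 bp at elt-4 and 12.5 bp at the distal region of elt-2. It was 22.5 bp away in the proximal intron of elt-1, 32.5 bp upstream of elt-3 and 39.5 bp in the proximal region of elt-2. These distances are from pooled summits, which the replicates did not always share. The summits of replicates 1 and 2 lay 11 and 162 bp from it in the intron of elt-3. At elt-4 they lay 84 and 2 bp away, and at the distal region of elt-2 49 and 4 bp. The replicate 1 summit at elt-4 had 0 sites within 50 bp. The distal intron window of elt-1, at 48.5% GC, had no site within 50 bp, and its whole region of 320 bp held 1. The proximal intron region of elt-1 held 8 over its whole width. The absence of these letters from a window says nothing about which protein was bound there.

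Other genes of the same pathways were examined by the same rule. Upstream of the endoderm, a region of the pooled list lay at 5 of 8 genes, 0 of them among the first 1000. The highest were at lit-1, a kinase gene of the Wnt pathway (signal 19.2, rank 3157), and pop-1, the TCF factor gene (signal 18.7, rank 3537). The upstream GATA-like genes med-1 and med-2 are near-identical copies, so their values are uncertain; med-2 had a pooled signal of 18.6 at rank 3615 and med-1 had no pooled region. The gene egl-27, whose protein carries a GATA-like finger, had a thresholded peak (signal 40.5, rank 279). Of 16 gut genes, 12 had a pooled region, 2 were among the first 1000 and 1 had a thresholded peak. They were ifb-2, an intermediate filament gene (signal 56.0, rank 112, thresholded), and act-5, the gut actin (signal 27.7, rank 842, with reads shared with other actin genes not examined). Of 12 epidermal and seam regulators, 9 had a pooled region, 2 of them among the first 1000 and 0 thresholded. The 2 were nhr-23, a nuclear receptor gene of the molting cycle (signal 34.1, rank 457), and ceh-16, the engrailed gene of the seam (signal 29.9, rank 661). By comparison the 9 GATA factor genes had 4 among the first 1000. Over all nuclear protein-coding genes, 40.2% had a pooled region, 5.07% had one among the first 1000 and 1.71% had a thresholded peak. Windows of the pathway genes ran from 4001 to 24414 bp, and the counts were not adjusted for length. No difference between these gene lists was tested.

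Genes with a pooled region close to a start and ranked most like the leading region of elt-3 were looked up by distance in log10 rank over 3 lists (pooled, replicate 1 and replicate 2). They were cdr-7 (ranks 339, 3959 and 296 in that order), zip-5 (357, 4093 and 346), egl-27 (382, 3297 and 311, a lower region than its thresholded peak) and mthf-1 (287, 3652 and 395). Their likeness to elt-3 in these ranks is how they were chosen and is no result. The distances ran from 0.0371 to 0.115 log10 units.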

How the data were processed

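The analysed files were narrowPeak lists on ce11, 1 per replicate, 1 pooled and 1 thresholded, with the pooled and thresholded ce10 lists as a check. Per the notes deposited with the files they were derived from alignments and a control. Library fragments measured 150 to 350 bp per the labels. Not given in the sources used here: aligner, peak caller, IDR threshold. The control was not analysed here. The deposited signal value of each region, made by the authors, has no stated scale; the authors also gave a -log10 q value, in which 233 pooled regions tie at the maximum of 1.35. Ranks therefore follow the signal. Chromosome lengths of WBcel235 were checked against the region ends. Genes and starts came from Ensembl release 115. The lists carry no read counts, and depth is unknown.

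The 2 replicates form 1 group, so no groups were compared and no test was made; counts stand beside the same counts over all genes or nuclear regions. Sites were searched on both strands. The routines were tested on simulated data. Named regions were the 3 of highest pooled signal per gene and any thresholded peak, with the best region of each replicate where the pooled list had none. Of each pathway list the thresholded genes and the 2 of highest pooled signal were named, and the 4 genes nearest to the leading region in log10 rank. The genes, lists and sites were chosen with earlier results of these data known. Python 3.11.15, numpy 2.4.6, pandas 2.3.3, scipy 1.17.1 and matplotlib 3.10.9 were used.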

Additional observations from a re-analysis of the deposited data

How the results depend on the processing

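Of 55 recomputed values for 6 results, 43 stayed within 1.5 times the value given, or, for the site share, within its 95% interval, and 12 did not. That interval, 21.5 to 69.2, is wide, so the rule is lenient for the site share. Some settings changed nothing, such as leaving out the gene body, which kept the same 18 regions. With starts reaching 5000 bp the pooled regions numbered 29. With the gene body alone they numbered 9, at 4 genes, and 0 genes had a thresholded peak, because the peak of elt-3 lies upstream. Among the first 1000 pooled regions the counts were 7 regions at 4 genes, and among the first 200 there were 0 genes with a peak. A replicate was left out by reading the other replicate's own list, and no pooled list was remade. The leading region then ranked 178 of 23975 in replicate 2, at elt-3, and 534 of 28183 in replicate 1, at elt-4. With the 4 letters GATA the site share was 72.2%, against 54.5% of nuclear pooled regions, and with sites anywhere in the region 83.3%, against 60.5%. Within the interval, the site share was 27.3% in the list of replicate 1 and 40% in that of replicate 2. With summits within 100 bp, 8 regions were found in both replicates (35.5% of nuclear pooled regions were). No paired analysis was possible because the series has 1 group. The pooled signal has no replicate error, and with no read counts what depth limits could not be computed.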
